A study of Mus musculus with 9 samples.

Results

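Osteopontin and a set of genes of the osteoclast lineage were followed in RAW264.7 cells, a mouse macrophage line that can be turned into osteoclasts. The set holds 10 of the 55487 Ensembl genes in the count lists, namely Spp1 (osteopontin), Acp5, Ctsk, Mmp9, Nfatc1, Tnfrsf11a, Dcstamp, Ocstamp, Oscar and Itgb3. All 10 were matched by symbol to 1 identifier each. Spp1 was chosen on these values, because its level moved in opposite directions in the edited lines, so its levels are described without a test. The other 9 were named for their place in the lineage, with earlier results of these data known, and are tested among all genes.

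Total RNA was sequenced after removal of ribosomal RNA from unstimulated cells of 3 genotypes, with 3 libraries each. Wild-type macrophages carry an unedited Cebpd gene, which encodes the transcription factor C/EBPδ. Knock-out macrophages carry an out-of-frame CRISPR deletion in Cebpd, and ΔTAD macrophages carry a deletion that removes the transactivation domain of C/EBPδ and leaves the rest of the protein to be made from its own promoter. No group received RANKL or any other stimulus. The edited lines are single-cell clones, 3 independent clones being mentioned for sequencing without saying of which genotype, so a difference between genotypes cannot be told apart from a difference between clones, and the p-values measure the spread between these libraries only. The libraries held 16113306 to 20981829 counts on genes, and 14312 genes passed edgeR's filter on low counts. The scaling factor of edgeR's TMM method was 0.888 in ΔTAD replicate 1 and lay between 0.999 and 1.027 in the other libraries. The targeted gene was still counted in every library. Counts per gene do not show the deleted part, so they give no check of the labels. The log2 fold change of Cebpd was -0.26 for knock-out (standard error 0.125, adjusted p = 0.085, edgeR) and -0.24 for ΔTAD (standard error 0.123, adjusted p = 0.0931, edgeR) when set against the wild-type libraries.

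Osteoclasts are large cells with many nuclei that form when macrophage precursors fuse, and they dissolve bone. The receptor RANK, the product of Tnfrsf11a, receives the signal of the cytokine RANKL, and the costimulatory receptor OSCAR adds a calcium signal. Both lead to NFATc1, the transcription factor that switches on most genes of the mature cell. Among these, Dcstamp and Ocstamp encode membrane proteins needed for fusion, and Itgb3 the β3 subunit of the integrin that attaches the cell to bone. The products of Acp5 (tartrate-resistant acid phosphatase), Ctsk (cathepsin K, the protease that cleaves bone collagen) and Mmp9 (a gelatinase) act in resorption. Osteopontin is a secreted phosphoprotein of bone matrix that binds integrins and CD44, and macrophages also make it in inflammation.

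The windows upstream of Spp1 and Ctsk are shown because Spp1 differed in direction between the edited lines and Ctsk had the largest change of the set. C/EBP proteins take their name from the CCAAT box. Each window holds the 250 bases before the RefSeq start on the plus strand of GRCm38, printed 5′ to 3′, at chr5:104434861-104435110 for Spp1 and at chr3:95498960-95499209 for Ctsk. Capitals mark the letters CCAAT, searched on both strands, and the core of the C/EBP motif written as TTNNGNAA, also searched on both strands.
Spp1: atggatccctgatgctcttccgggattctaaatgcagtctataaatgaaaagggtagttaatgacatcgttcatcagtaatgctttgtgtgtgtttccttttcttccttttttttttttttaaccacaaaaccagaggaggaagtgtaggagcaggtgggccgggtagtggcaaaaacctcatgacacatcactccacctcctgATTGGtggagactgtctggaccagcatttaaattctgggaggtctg
Ctsk: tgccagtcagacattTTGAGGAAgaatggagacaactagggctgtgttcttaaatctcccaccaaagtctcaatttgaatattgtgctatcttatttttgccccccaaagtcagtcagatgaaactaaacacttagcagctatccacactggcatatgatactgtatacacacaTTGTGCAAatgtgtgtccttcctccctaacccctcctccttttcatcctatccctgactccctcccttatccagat
In the Spp1 window the capitals are a CCAAT on the minus strand, which reads ATTGG here and lies 46 to 42 bases before the start. The Ctsk window holds 2 matches of the C/EBP core, TTGAGGAA at 235 to 228 bases and TTGTGCAA at 76 to 69 bases before the start, and no CCAAT. Of all 32851 RefSeq windows of this length, 33.8% hold a CCAAT and 36.8% hold a C/EBP core, so neither match sets these windows apart, and a match is a description of the letters and not a binding site. The letters TGANTCA of the AP-1 site, held by 6.75% of windows, were in neither window, and GGAAA, the core of the NFAT motif, was found once in that of Spp1, as TTTCC from 157 to 153 bases before the start, against 55.6% of all windows with at least 1 match. The motifs can overlap, and their letters were chosen after the windows were available.

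Osteopontin was among the most abundant transcripts of every library, higher in knock-out and lower in ΔTAD macrophages than in wild-type macrophages. Spp1 (ENSMUSG00000029304, chr5:104435118-104441050, plus strand of GRCm38) was counted 142249, 127915 and 117900 times in wild-type macrophages, 197984, 181174 and 186452 times in knock-out macrophages and 71936, 104668 and 105074 times in ΔTAD macrophages. Scaled by TMM to a common library size and given as CPM, these are 7092, 7403 and 7139 CPM in wild-type, 10439, 10947 and 10565 CPM in knock-out and 5032, 5026 and 5000 CPM in ΔTAD macrophages. The 3 groups did not overlap. The wild-type mean was 7211 ± 168 CPM (SD, n = 3), the knock-out mean 10650 ± 265 CPM (SD, n = 3) and the ΔTAD mean 5019 ± 16.7 CPM (SD, n = 3). Osteopontin transcripts thus made up 0.738% of the counts on genes in wild-type macrophages, 1.08% in knock-outs and 0.486% with ΔTAD, and by CPM the gene held rank 3 in wild-type, rank 1 in knock-out and rank 6 in ΔTAD macrophages. In bulk RNA, more cells with the transcript and more transcript per cell cannot be told apart.

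The log2 fold change of Spp1 against wild-type macrophages was 0.56 (standard error 0.0173) in knock-out and -0.52 (standard error 0.0173) in ΔTAD macrophages. Knock-out lay 2.12-fold above ΔTAD macrophages, a log2 difference of 1.09 (standard error 0.0175). The fold changes are modest, 1.48-fold up and 1.44-fold down. A gene model of unclear status on the same strand, Gm42793, shares exon sequence with Spp1. It received 165 to 682 counts, with log2 fold changes against wild-type macrophages of 0.60 in knock-out and -1.15 in ΔTAD cells. Which of these reads came from Spp1 is uncertain, since the counting mode is not given in the sources used here.

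**Figure D1:**
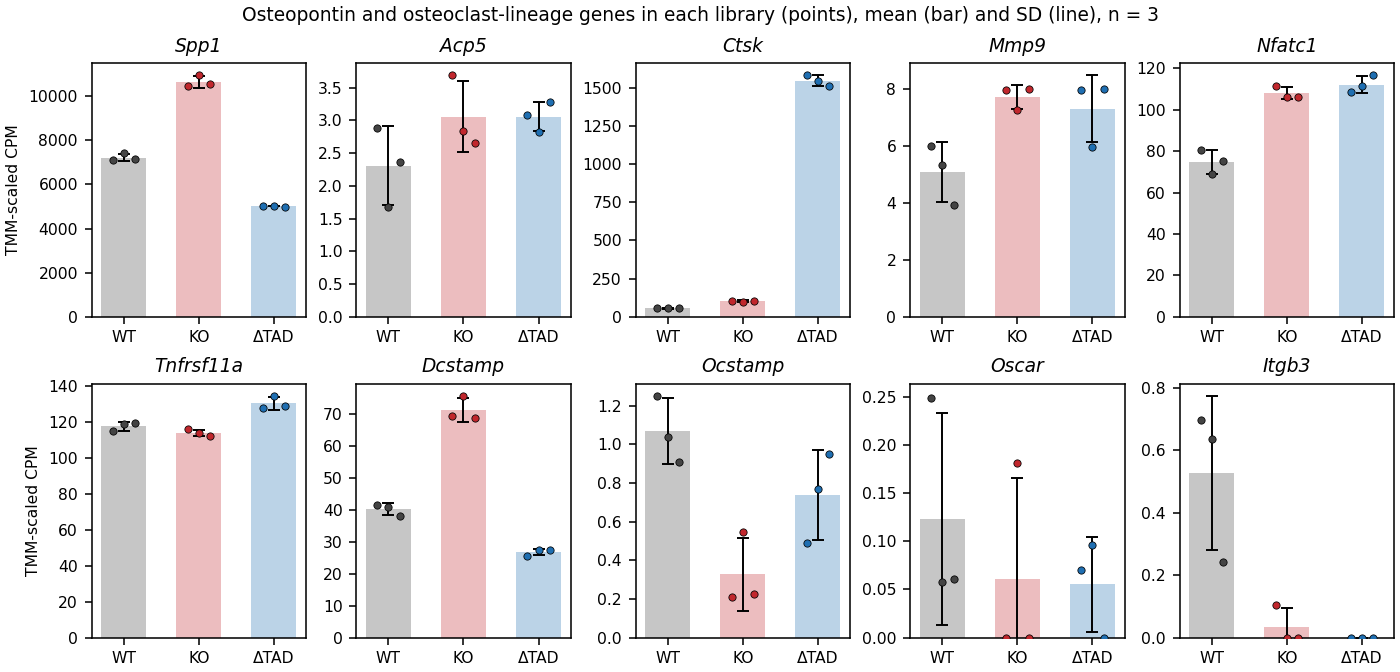
Level of each of the 10 genes in the 9 libraries, in CPM scaled by TMM on a linear axis from 0 that differs between panels; points are libraries, bars the mean and lines the SD of 3 libraries of wild-type (WT), knock-out (KO) and ΔTAD macrophages. Spp1 and Dcstamp are highest in knock-out and lowest in ΔTAD macrophages, Ctsk stands at 1512 to 1581 CPM in ΔTAD and at most at 107.1 CPM in the other libraries, and Itgb3 is at 0 in all ΔTAD libraries.

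The receptors of osteopontin did not share its pattern. The list of 8 receptor genes leaves out the β3 integrin chain Itgb3, a gene of the set that is given below. Of these 8, 6 were tested, and 4 rose and 1 fell in knock-out, while 2 rose and 0 fell in ΔTAD macrophages. Of all genes tested, 22.8% were higher and 22.4% lower in knock-out and 26.3% and 23.4% in ΔTAD macrophages. Cd44, the hyaluronan receptor that also binds osteopontin, had 889 to 945 CPM in the wild-type, 1208 to 1276 CPM in the knock-out and 887 to 923 CPM in the ΔTAD libraries. It rose in knock-out macrophages by 0.43 on the log2 scale (standard error 0.0302, adjusted p = 7.57e-12, edgeR). For ΔTAD macrophages the fit gave -0.02 (standard error 0.0302, adjusted p = 0.602, edgeR), and the wild-type and ΔTAD libraries overlapped. Itga5 rose in both edited genotypes, by 0.74 (adjusted p = 8.04e-14, edgeR) in knock-out and 0.76 (adjusted p = 3.72e-14, edgeR) in ΔTAD macrophages. Itgb5 rose in ΔTAD macrophages, from 19.0 ± 0.407 CPM (SD, n = 3) in wild-type to 30.5 ± 1.25 CPM (SD, n = 3), a log2 fold change of 0.68 (adjusted p = 1.32e-09, edgeR), and had a log2 fold change of -0.05 (adjusted p = 0.567, edgeR) in knock-out macrophages.

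The αv chain Itgav and the β1 chain Itgb1 rose slightly in knock-out macrophages, by 0.14 (adjusted p = 0.00388, edgeR) and 0.13 (adjusted p = 0.00213, edgeR) on the log2 scale. In ΔTAD macrophages their log2 fold changes were 0.05 (adjusted p = 0.255, edgeR) and 0.07 (adjusted p = 0.0717, edgeR). Itga4 fell in knock-out macrophages by 0.42 on the log2 scale (adjusted p = 4.23e-08, edgeR) and had -0.08 (adjusted p = 0.137, edgeR) in ΔTAD macrophages. Itga8 and Itga9 were at or near 0 in all libraries. The genes beside Spp1 that encode related bone matrix proteins, Ibsp, Dmp1, Dspp and Mepe, had at most 2 counts in any library.

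The receptor RANK was expressed in every library and changed little. Tnfrsf11a (ENSMUSG00000026321, chr1:105780718-105847981, plus strand) had 2304, 2058 and 1970 counts in wild-type, 2199, 1881 and 1981 in knock-out and 1831, 2804 and 2708 in ΔTAD macrophages. This is 115 to 119 CPM in wild-type, 112 to 116 CPM in knock-out and 128 to 135 CPM in ΔTAD macrophages, and the ΔTAD libraries lay above all others. Knock-out differed from wild-type macrophages by -0.05 on the log2 scale (standard error 0.0331, adjusted p = 0.248, edgeR), with a 95% interval from -0.11 to 0.02. In ΔTAD macrophages Tnfrsf11a rose by 0.15 (standard error 0.0327, adjusted p = 0.000338, edgeR). Knock-out lay below ΔTAD macrophages by 0.20 on the log2 scale (standard error 0.0328, adjusted p = 3.34e-05, edgeR). Both calls were lost when libraries were scaled by their size alone, with log2 fold changes of 0.06 (adjusted p = 0.404, edgeR) and -0.12 (adjusted p = 0.11, edgeR). The ligand gene Tnfsf11 (RANKL) and its decoy receptor Tnfrsf11b (osteoprotegerin) had 0 counts in all 9 libraries, where a count of 0 allows up to 3 counts, or 0.143 to 0.21 CPM, counting error only.

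Oscar, the costimulatory receptor (ENSMUSG00000054594, chr7:3609813-3616157, minus strand), was close to undetected. Its counts were 5, 1 and 1 in wild-type, 0, 3 and 0 in knock-out and 1, 2 and 0 in ΔTAD macrophages. It did not pass the filter, and no difference was detectable at this depth.

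Nfatc1, the master regulator, rose to a like level in both edited genotypes. Its counts (ENSMUSG00000033016, chr18:80606205-80713071, minus strand) were 1619, 1194 and 1244 in wild-type, 2113, 1760 and 1877 in knock-out and 1551, 2321 and 2453 in ΔTAD macrophages. The levels were 69.1 to 80.7 CPM in wild-type, 106.3 to 111.4 CPM in knock-out and 108.5 to 116.7 CPM in ΔTAD macrophages, and no edited library overlapped the wild-type libraries. The log2 fold changes against wild-type macrophages were 0.52 (standard error 0.0438, adjusted p = 2.31e-10, edgeR) in knock-out and 0.58 (standard error 0.0435, adjusted p = 2.59e-11, edgeR) in ΔTAD macrophages. Between the edited genotypes the log2 difference was -0.06 (adjusted p = 0.285, edgeR), with a 95% interval from -0.14 to 0.03.

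The fusion genes Dcstamp and Ocstamp were both called in knock-out macrophages, Dcstamp higher and Ocstamp, near the limit of detection, lower. In ΔTAD macrophages only Dcstamp was called, and it was lower. Dcstamp (ENSMUSG00000022303, chr15:39745930-39760938, plus strand) followed the order of Spp1, with 833, 707 and 628 counts in wild-type, 1315, 1253 and 1215 in knock-out and 366, 571 and 574 in ΔTAD macrophages. These are 38.0 to 41.5 CPM in wild-type, 68.8 to 75.7 CPM in knock-out and 25.6 to 27.4 CPM in ΔTAD macrophages, without overlap between groups. Dcstamp rose in knock-out macrophages by 0.82 on the log2 scale (standard error 0.0498, adjusted p = 5.04e-13, edgeR). In ΔTAD macrophages it fell by 0.58 on the log2 scale (standard error 0.0566, adjusted p = 2.97e-09, edgeR). Knock-out exceeded ΔTAD macrophages 2.65-fold, a log2 difference of 1.41 (standard error 0.0526, adjusted p = 1.66e-16, edgeR).

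Ocstamp, the second fusion protein gene (ENSMUSG00000027670, chr2:165393760-165400405, minus strand), was near the limit of detection. It had 25, 18 and 15 counts in wild-type, 4, 9 and 4 in knock-out and 7, 16 and 20 in ΔTAD macrophages. The wild-type level was 1.07 ± 0.17 CPM (SD, n = 3), the knock-out level 0.327 ± 0.188 CPM (SD, n = 3) and the ΔTAD level 0.737 ± 0.233 CPM (SD, n = 3), and the knock-out libraries lay below all wild-type libraries. Ocstamp was called lower in knock-out macrophages, but it passed the filter through the wild-type libraries, so no fold is given for this comparison. The ΔTAD libraries overlapped the wild-type libraries, with a log2 fold change of -0.49 (standard error 0.319, adjusted p = 0.191, edgeR) and a 95% interval from -1.12 to 0.13. The difference between the edited genotypes, -1.23, did not pass (standard error 0.416, adjusted p = 0.0187, edgeR), and it passed when knock-out replicate 2 was left out (-1.76, adjusted p = 0.00684, edgeR). Both values rest on few knock-out counts, near the floor of 3.

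Itgb3, the β3 integrin chain (ENSMUSG00000020689, chr11:104608000-104670476, plus strand), had 14, 11 and 4 counts in wild-type, 2, 0 and 0 in knock-out and 0 in all 3 ΔTAD libraries. Every wild-type library lay above every edited library. The mean wild-type level of Itgb3, 0.526 ± 0.247 CPM (SD, n = 3), was 3.1-fold the mean floor of 3 counts in the knock-out libraries. It was 3.17-fold that floor in the ΔTAD libraries. These ratios leave out the spread of the wild-type libraries, of which replicate 3 had 0.242 CPM, so they are not lower bounds. It did not pass the filter and was not among the genes tested. Where every gene with at least 1 count was tested, it was called lower in knock-out (adjusted p = 6.01e-05, edgeR) and in ΔTAD macrophages (adjusted p = 3.3e-07, edgeR).

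Ctsk, the gene of cathepsin K (ENSMUSG00000028111, chr3:95499256-95509362, plus strand), had the largest change among the 8 genes of the set that passed the filter. It had 1174, 950 and 914 counts in wild-type and 2032, 1623 and 1855 in knock-out macrophages. In ΔTAD macrophages it had 22607, 32135 and 31764 counts. The levels were 58.5, 55.0 and 55.3 CPM in wild-type, 107.1, 98.1 and 105.1 CPM in knock-out and 1581, 1543 and 1512 CPM in ΔTAD macrophages. No library of one group reached another group, and the ΔTAD libraries stood an order of magnitude above the rest. By CPM the gene moved from rank 4201 in wild-type to rank 2412 in knock-out and rank 40 in ΔTAD macrophages, where it took 0.149% of the counts on genes.

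Against wild-type macrophages, Ctsk rose by 0.88 on the log2 scale in knock-out (standard error 0.0388, adjusted p = 1.24e-15, edgeR). In ΔTAD macrophages it rose 27.4-fold, a log2 fold change of 4.78 (standard error 0.0423, adjusted p = 2.22e-29, edgeR), which was rank 19 from the highest among the 14312 genes tested. Knock-out lay 14.9-fold below ΔTAD macrophages, a log2 difference of -3.90 (standard error 0.0403, adjusted p = 7.84e-28, edgeR). Thus Ctsk and Dcstamp, both downstream of NFATc1 in the osteoclast, were ordered oppositely between the edited genotypes.

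Acp5, the classical enzyme marker of osteoclasts (ENSMUSG00000001348, chr9:22126727-22135711, minus strand), stayed low. It had 58, 29 and 39 counts in wild-type, 70, 47 and 47 in knock-out and 44, 59 and 69 in ΔTAD macrophages. Knock-out and ΔTAD libraries both overlapped the wild-type libraries. Its log2 fold changes were 0.40 (standard error 0.199, adjusted p = 0.0946, edgeR) in knock-out and 0.39 (standard error 0.198, adjusted p = 0.0918, edgeR) in ΔTAD macrophages, and neither passed the test. A transcript on the opposite strand that shares exon sequence with Acp5, 6530413G14Rik, had 0 to 7 counts.

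Mmp9, the gelatinase (ENSMUSG00000017737, chr2:164940780-164955850, plus strand), had 120, 92 and 65 counts in wild-type, 151, 120 and 141 in knock-out and 114, 124 and 168 in ΔTAD macrophages. The levels were 3.94 to 5.98 CPM in wild-type, 7.25 to 7.99 CPM in knock-out and 5.95 to 8.0 CPM in ΔTAD macrophages, so that the lowest ΔTAD library overlapped the wild-type libraries. Mmp9 rose in knock-out macrophages by 0.59 (standard error 0.142, adjusted p = 0.000946, edgeR) and in ΔTAD macrophages by 0.50 (standard error 0.142, adjusted p = 0.00416, edgeR) on the log2 scale. The second call was lost without ΔTAD replicate 1 (0.41, adjusted p = 0.018, edgeR), without ΔTAD replicate 3 (0.41, adjusted p = 0.0323, edgeR) and without wild-type replicate 3 (0.35, adjusted p = 0.0362, edgeR). Between the edited genotypes the difference was 0.10 (adjusted p = 0.585, edgeR), with a 95% interval from -0.16 to 0.35.

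**Figure D2:**
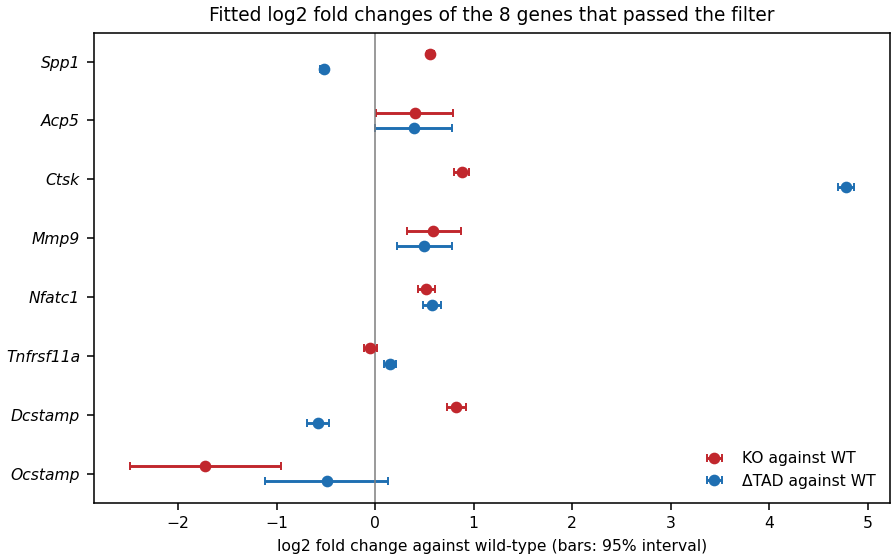
Fitted log2 fold change against wild-type (WT) macrophages of the 8 genes that passed the filter, in knock-out (KO, red) and ΔTAD (blue) macrophages; points are the fit over 3 libraries per genotype and bars 95% intervals. Spp1 and Dcstamp lie on opposite sides of 0, Nfatc1, Mmp9 and Acp5 lie together in both genotypes, and Ctsk reaches 4.78 in ΔTAD macrophages. Ocstamp passed the filter through the wild-type libraries, and its knock-out value rests on 4, 9 and 4 counts.

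In counts, 4 of the 9 genes other than Spp1 (Ctsk, Dcstamp, Mmp9 and Nfatc1) were called higher in knock-out than in wild-type macrophages at an adjusted p under 0.01, against 22.8% of all genes tested, and 1 (Ocstamp) was called lower, against 22.4%. In ΔTAD macrophages 4 (Ctsk, Mmp9, Nfatc1 and Tnfrsf11a) were called higher, against 26.3%, and 1 (Dcstamp) lower, against 23.4%. Between the edited genotypes 1 (Dcstamp) was higher in knock-out macrophages, against 13.9%, and 2 (Ctsk and Tnfrsf11a) were lower, against 19.1%. Only 7 of the 9 passed the filter, and nothing is read from shares over so few genes. Ocstamp passed it through the wild-type libraries, where it was highest, so nothing is read from its lower call either.

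Compared per length of exon sequence, as RPKM, the CPM divided by the length in kilobases, the genes kept a steep order. In wild-type macrophages Spp1 (4376 ± 101.7 RPKM, SD, n = 3) was followed by Ctsk (37.2 ± 1.29 RPKM), Tnfrsf11a (19.7 ± 0.418 RPKM), Dcstamp (15.1 ± 0.702 RPKM) and Nfatc1 (10.0 ± 0.778 RPKM). Below these came Mmp9 (1.44 ± 0.295 RPKM) and Acp5 (1.14 ± 0.30 RPKM), whose libraries overlapped, then Ocstamp (0.291 ± 0.0466 RPKM), and Itgb3 and Oscar, which overlapped. In knock-out macrophages Dcstamp (26.8 ± 1.44 RPKM) stood above Tnfrsf11a (19.0 ± 0.311 RPKM). In ΔTAD macrophages Nfatc1 (15 ± 0.559 RPKM) stood above Dcstamp (10.1 ± 0.383 RPKM), and Ctsk reached 1022 ± 23.1 RPKM, while Spp1 remained first at 3046 ± 10.1 RPKM.

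Beyond the set, 117 genes of the osteoclast pathway in 5 functional lists were followed, of which all but 11 passed the filter. In knock-out macrophages 62 of the 117 were called higher (53.0%) and 18 lower (15.4%), and in ΔTAD macrophages 61 were called higher (52.1%) and 21 lower (17.9%), beside 22.8% and 22.4% of all genes tested in knock-out and 26.3% and 23.4% in ΔTAD macrophages. The median log2 fold change of those tested was 0.26 in both, beside -0.001 in knock-out and -0.003 in ΔTAD macrophages over all genes tested. Both comparisons share the wild-type libraries. The lists were chosen with earlier results of these data known, and their genes were not matched to other genes by level. Between knock-out and ΔTAD macrophages 32 were called higher (27.4%) and 29 lower (24.8%), with a median of -0.01.

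Genes of acid secretion and matrix resorption were called higher most often among the 5 lists in both edited genotypes. Of 23, 16 were higher and 3 lower in knock-out, and 16 higher and 2 lower in ΔTAD macrophages, with medians of 0.41 and 0.39. Over all genes tested, 22.8% were higher and 22.4% lower in knock-out and 26.3% and 23.4% in ΔTAD macrophages. Clcn7, the chloride transporter of the resorption pit, rose from 57.7 CPM in wild-type to 129 CPM in knock-out and 112 CPM in ΔTAD macrophages, with log2 fold changes of 1.15 (adjusted p = 2.36e-18, edgeR) and 0.95 (adjusted p = 9.89e-17, edgeR). Fam20c, a kinase that phosphorylates secreted proteins including osteopontin, rose by 1.25 (adjusted p = 2.89e-16, edgeR) and 0.97 (adjusted p = 4.91e-14, edgeR). The cysteine protease gene Ctss, the next gene on the chromosome after Ctsk among those tested, rose by 1.06 in knock-out and 1.07 in ΔTAD macrophages, where Ctsk rose by 0.88 and 4.78.

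The genes of this list that fell were Car2 and Ctsl in both edited genotypes and Ckb in knock-out macrophages. Car2, carbonic anhydrase II, which supplies the protons for resorption, had 150 to 158 CPM in the wild-type, 7.07 to 7.67 CPM in the knock-out and 1.05 to 2.00 CPM in the ΔTAD libraries. It fell by 4.41 on the log2 scale in knock-out (adjusted p = 8.86e-26, edgeR), and it fell by 6.52 in ΔTAD macrophages (adjusted p = 3.12e-27, edgeR). Ctsl, a further cathepsin gene, fell from 586 CPM in wild-type to 261 CPM in knock-out and 169 CPM in ΔTAD macrophages, by 1.17 (adjusted p = 3.13e-18, edgeR) and 1.79 (adjusted p = 8.16e-22, edgeR) on the log2 scale. Thus the cathepsin genes Ctsk and Ctsl moved in opposite directions. Ckb, which encodes brain-type creatine kinase, fell by 0.74 on the log2 scale in knock-out macrophages (adjusted p = 1.44e-14, edgeR) and had -0.09 in ΔTAD macrophages (adjusted p = 0.0275, edgeR).

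Of 37 genes of RANK and costimulatory signalling, 18 were called higher and 4 lower in knock-out and 19 higher and 5 lower in ΔTAD macrophages. The shares of all genes tested were 22.8% higher and 22.4% lower in knock-out and 26.3% and 23.4% in ΔTAD macrophages. Relb, a subunit of the noncanonical NF-κB pathway, rose from 7.50 CPM to 15.2 CPM in knock-out and 19.9 CPM in ΔTAD macrophages (log2 1.02 and 1.41, adjusted p = 6.55e-09 and 5.88e-12, edgeR). Blnk, an adaptor between costimulatory receptors and calcium signalling, rose by 0.99 (adjusted p = 1.62e-11, edgeR) and 1.32 (adjusted p = 2.71e-14, edgeR). Traf3, an inhibitor of the noncanonical pathway, fell by 0.56 on the log2 scale in knock-out (adjusted p = 1.17e-12, edgeR) and by 0.47 in ΔTAD macrophages (adjusted p = 1.66e-11, edgeR). Nfkbia, which encodes the NF-κB inhibitor IκBα, fell by 0.44 (adjusted p = 1.94e-09, edgeR) and by 0.18 (adjusted p = 0.00064, edgeR) on the log2 scale.

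Among 16 transcription factors that promote osteoclast formation, 8 were called higher and 1 lower in knock-out and 8 higher and 3 lower in ΔTAD macrophages. The shares of all genes tested were 22.8% higher and 22.4% lower in knock-out and 26.3% and 23.4% in ΔTAD macrophages. Tfec, a relative of MITF, had 0.199 to 0.303 CPM in the wild-type, 5.55 to 7.86 CPM in the knock-out and 10.2 to 12.7 CPM in the ΔTAD libraries. It was called higher in both, but with 4, 4 and 5 counts in wild-type macrophages it too passed the filter through the edited genotypes, and no fold is given. Myc rose from 2.54 CPM in wild-type to 26.9 CPM in knock-out and 24.0 CPM in ΔTAD macrophages (log2 3.39 and 3.23, adjusted p = 3.13e-18 and 8.6e-18, edgeR). Fosl1, which encodes the AP-1 subunit Fra-1, fell by 0.50 (adjusted p = 2.34e-07, edgeR) and by 1.10 (adjusted p = 3.44e-13, edgeR) on the log2 scale. Ppargc1b, a coactivator of mitochondrial genes, fell by 0.29 on the log2 scale in ΔTAD macrophages (adjusted p = 0.000127, edgeR) and had -0.07 in knock-out macrophages (adjusted p = 0.291, edgeR). Fos, chosen after its values were seen because it encodes the AP-1 subunit c-Fos that acts before NFATc1, rose by 1.07 (adjusted p = 4.54e-11, edgeR) and 2.39 (adjusted p = 5.87e-19, edgeR).

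Of 16 genes that restrain osteoclast formation, 8 were called higher and 4 lower in knock-out and 8 higher and 5 lower in ΔTAD macrophages, as many called higher as among the promoting factors. The shares of all genes tested were 22.8% higher and 22.4% lower in knock-out and 26.3% and 23.4% in ΔTAD macrophages. Rcan1, an inhibitor of calcineurin, rose by 1.23 (adjusted p = 8.72e-16, edgeR) and 0.76 (adjusted p = 1.35e-11, edgeR), and the inhibitory receptor gene Pirb by 1.26 (adjusted p = 5.95e-06, edgeR) and 1.11 (adjusted p = 3.28e-05, edgeR). Id1, a repressor of DNA binding by helix-loop-helix factors, fell by 0.61 (adjusted p = 0.00247, edgeR) and 1.54 (adjusted p = 7.62e-08, edgeR) on the log2 scale. The inhibitory receptor gene Lilrb4a rose by 0.71 in knock-out (adjusted p = 5.31e-13, edgeR) and fell by 0.81 in ΔTAD macrophages (adjusted p = 1.48e-13, edgeR). Lilrb4a and Pirb have close paralogs, with which their reads could be split.

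Of 25 genes of fusion, adhesion and the actin ring, 12 were called higher and 6 lower in knock-out and 10 higher and 6 lower in ΔTAD macrophages. The shares of all genes tested were 22.8% higher and 22.4% lower in knock-out and 26.3% and 23.4% in ΔTAD macrophages. Siglec15, a receptor needed for fusion, was called higher in both, with 3, 2 and 5 counts in wild-type, 33, 17 and 22 in knock-out and 23, 46 and 47 in ΔTAD macrophages. Its wild-type counts are near the floor and it passed the filter through the edited genotypes, so no fold is given. Atp6v0d2, a proton pump subunit that also acts in fusion, rose by 1.78 (adjusted p = 2.65e-14, edgeR) and 0.73 (adjusted p = 1.31e-06, edgeR), with the order of Dcstamp between the edited genotypes but above wild-type in both. Rhou, a small GTPase of adhesion structures, was called lower in both edited genotypes, with 38, 33 and 33 counts in wild-type macrophages. It had 6, 4 and 4 counts in knock-out and 14, 10 and 11 in ΔTAD macrophages. Rhou passed the filter through the wild-type libraries and its knock-out counts are near the floor, so no fold is given. Pxn, the focal adhesion adaptor paxillin, fell by 0.76 (adjusted p = 4.06e-15, edgeR) and 0.90 (adjusted p = 1.37e-16, edgeR) on the log2 scale.

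**Figure D3:**
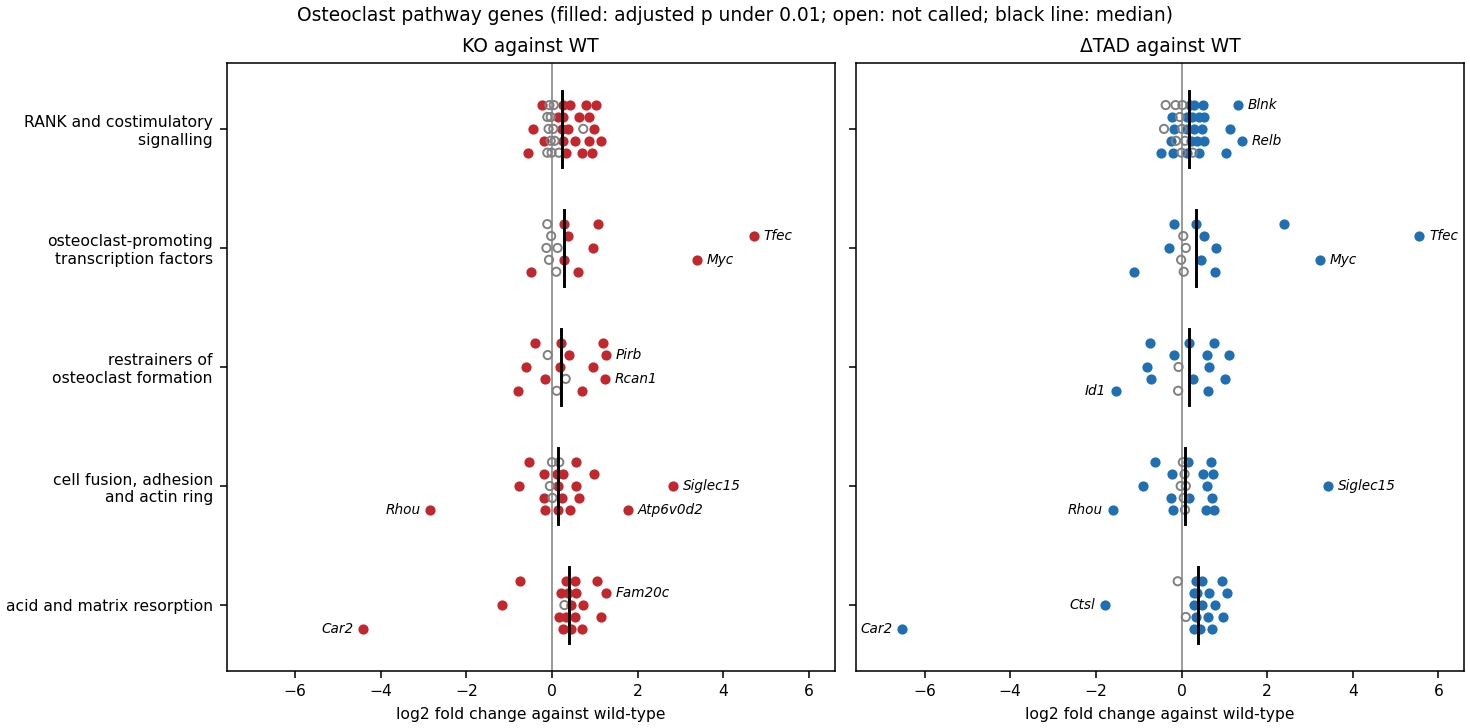
Log2 fold change against wild-type (WT) macrophages of the tested genes of the 5 functional lists, in knock-out (KO, left) and ΔTAD (right) macrophages; filled points passed an adjusted p under 0.01 in edgeR, open points did not, black lines are list medians, and the vertical spread only separates points. The resorption list has the highest medians, 0.41 and 0.39, with Car2 far below at -4.41 and -6.52, and Tfec, Myc and Siglec15 lie farthest to the right in both panels, the fitted values of Tfec and Siglec15 resting on at most 5 counts per wild-type library.

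The 5 genes whose level followed that of Spp1 most closely over the 9 libraries, among 8944 genes whose mean reached 10 CPM, included 1 of the set. By Pearson's r of log2 CPM these were Rasal2 (0.998), Lilrb4a (0.995), Slc40a1 (0.995), Dcstamp (0.994) and Fndc3a (0.993). The values share libraries and scaling, so r describes the order of 3 genotypes and not 9 independent points. Slc40a1, the iron exporter ferroportin, spanned the widest range of these, from 81.9 CPM in knock-out over 39.6 CPM in wild-type to 16.1 CPM in ΔTAD macrophages. Rasal2, a regulator of Ras, had nearly the fold changes of Spp1, 0.50 in knock-out and -0.51 in ΔTAD macrophages. Of the other genes of the set above this level, Nfatc1 had r of -0.071, Ctsk -0.753 and Tnfrsf11a -0.906 with Spp1.

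The genes around Spp1, Dcstamp and Ctsk are given beside them because neighbours can move together in clonal lines. Within 5 Mb of Spp1, the median log2 fold change of 67 other tested genes was 0.00 for knock-out and -0.13 for ΔTAD, beside 0.56 and -0.52 for Spp1. Of the 3 other tested genes within 200 kb, the overlapping model Gm42793 had 0.60 and -1.15, Pkd2 had 0.27 and -0.01, and D930016D06Rik had 0.10 in knock-out macrophages (adjusted p = 0.303, edgeR). In ΔTAD macrophages D930016D06Rik fell by 0.51 on the log2 scale (adjusted p = 8.17e-06, edgeR), close to the value of Spp1. Around Dcstamp 43 genes had medians of -0.12 and -0.20, and its neighbours Dpys (-1.49 and -2.60) and Lrp12 (-0.57 and -0.73) fell in both genotypes. Around Ctsk 140 genes had medians of -0.01 and 0.00. Among the 14 other tested genes within 200 kb of Ctsk the highest log2 fold change in ΔTAD macrophages was 1.41 (Hmgb1-ps5), against 4.78 for Ctsk.

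**Figure D4:**
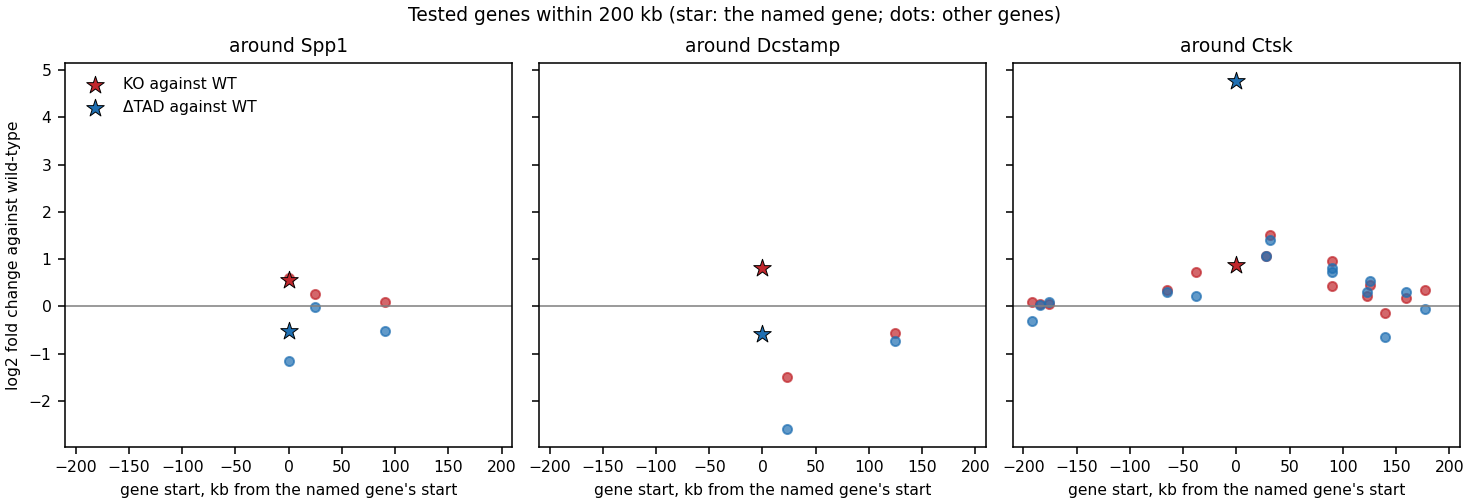
Log2 fold change against wild-type (WT) macrophages of Spp1, Dcstamp and Ctsk (stars) and of the other tested genes that start within 200 kb (dots), by distance in kb from the start of the named gene; red is knock-out (KO) and blue ΔTAD. Near Spp1 the overlapping model Gm42793 lies at 0.60 and -1.15, both neighbours of Dcstamp lie below 0 in both genotypes, and no dot near Ctsk exceeds 1.52.

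The libraries carried the markers of macrophages, and these moved with genotype too. Of 8 macrophage markers 7 were expressed, Mertk being at or under the floor, and their summed level was 2498 to 2647 CPM in wild-type, 3483 to 3837 CPM in knock-out and 5799 to 5964 CPM in ΔTAD macrophages. Lyz2 carried most of the rise of the sum, with 1167, 2114 and 4192 CPM in this order. Adgre1 (21.6, 58.8 and 70.9 CPM), Cd68 (733.0, 805.1 and 864.5 CPM) and Ptprc (211.6, 235.0 and 256.3 CPM) were higher in both edited genotypes too. Csf1r had 388.6, 373.2 and 447.4 CPM. Fcgr1 was lower in the edited genotypes, with 39.5, 17.8 and 28.9 CPM, as was Itgam, with 34.3, 30.7 and 31.1 CPM. The part of these markers in the values of Ctsk and Spp1 was not tested. Markers of other cells that make osteopontin were mostly missing. Of 6 osteoblast markers 4 were at or under the floor (Sp7, Bglap, Col1a1 and Ibsp), with a summed level of 22.5 to 23.9 CPM in wild-type, 28.5 to 31.3 CPM in knock-out and 23.5 to 26.7 CPM in ΔTAD macrophages. Runx2 gave 19.2 CPM of this in wild-type, 29.9 CPM in knock-out and 24.6 CPM in ΔTAD macrophages, and Alpl 3.98 CPM in wild-type macrophages and at most 1 count in any edited library. All 4 fibroblast markers were at 0 in every library. Of 4 dendritic cell markers, Flt3 was at 0, and the sum was 15.9 to 17.4 CPM in wild-type, 7.07 to 9.24 CPM in knock-out and 6.48 to 7.14 CPM in ΔTAD macrophages, mostly Itgax. Markers of B cells and epithelial cells summed to at most 0.249 CPM in any library, those of neutrophils to at most 1.33 CPM and those of T cells to at most 7.29 CPM, all of it Lck.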

How the data were processed

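RNA from RAW264.7 wild-type, knock-out and ΔTAD macrophages was measured in 3 libraries per genotype. The authors prepared libraries after depletion of ribosomal RNA, sequenced single reads and trimmed these with Trimmomatic, whose version differs between the sources used here. Alignment was with HISAT2 to GRCm38, and HTSeq gave the counts per Ensembl gene. The deposited values are counts per gene, whole numbers without normalization. Strand setting and counting mode are not given in the sources used here, so overlapping genes, antisense genes and close paralogs are uncertain. Between 46.77% and 53.35% of records lay on 5 tally lines that name no gene and were left out. Genotypes and replicate numbers came from the sample labels.

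The genes, lists and tests were chosen with earlier results of these data known. Counts were filtered with filterByExpr (minimum count 10, minimum total 15), scaled by TMM and fitted in 1 quasi-likelihood model of 3 genotypes in edgeR 4.0.16 (R 4.3.3), with Benjamini-Hochberg adjustment over 14312 genes and calls under 0.01. Standard errors were derived from the log2 fold change and its F statistic, and 95% intervals from the standard errors. A count of 3 was the floor. RPKM used the exon length of GENCODE, on GRCm38, which also gave positions. Promoter windows from RefSeq (GRCm38.p6) were read for 5 of the 10 genes. No window was found for Mmp9, Dcstamp, Ocstamp and Itgb3, and none was read for Nfatc1 on chromosome 18. The script was tested on simulated data. Named are the 10 genes, in each list the 2 called genes with the highest and the 2 with the lowest log2 fold change against wild-type in either edited genotype at 1 CPM or more in the higher group, all listed receptors and relatives of osteopontin, and the 5 genes most correlated with Spp1 (log2 CPM, prior count 2). Of the other features named, neighbours and markers were added as context. Alternatives were limma-voom (limma 3.58.1), DESeq2 1.42.0, other scalings, filters and thresholds, the 2 genotypes compared alone, the replicate number as a block, and leaving out each library.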

Additional observations from a re-analysis of the deposited data

Results flagged for a closer look

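Of the 8 genes that passed the filter, 4 responded differently in knock-out and ΔTAD macrophages, which for Spp1 was the reason for its choice and was not tested. Of all genes tested, 13.9% were called higher and 19.1% lower in knock-out than in ΔTAD macrophages, so 3 calls among the 7 other genes are no more than a description of these genes. The log2 difference of knock-out from ΔTAD macrophages was 1.09 for Spp1. For the others it passed edgeR's test at an adjusted p under 0.01, at 1.41 for Dcstamp (adjusted p = 1.66e-16, edgeR), -3.9 for Ctsk (adjusted p = 7.84e-28, edgeR) and -0.2 for Tnfrsf11a (adjusted p = 3.34e-05, edgeR). For Spp1 and Dcstamp every knock-out library lay above and every ΔTAD library below the wild-type libraries, and for Ctsk every ΔTAD library exceeded every other library. Of all 14312 genes tested, 99 (0.692%) were called higher in knock-out and lower in ΔTAD than in wild-type macrophages. Among these were Dcstamp and the list genes Lilrb4a, Sh3pxd2a and Tln1. The reverse pattern was called for 81 genes (0.566%). For Tnfrsf11a every ΔTAD library lay above every other library, by a small margin that the scaling decides.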

How the results depend on the processing

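Of the values of the 8 genes that passed the filter, 411 were kept, 2 passed the threshold newly, 5 no longer passed it, 7 changed sign and 3 moved without a test. Kept means the same direction and side of the threshold. For Spp1, which was not tested, it means a shift under the SD of its log2 CPM within genotypes, 0.0283. The values that moved without a test were those of Spp1, to -0.61 in ΔTAD against wild-type and 1.16 in knock-out against ΔTAD with library size alone, and to -0.55 in ΔTAD against wild-type without ΔTAD replicate 1. The sign changed for differences near 0 between knock-out and ΔTAD, for Acp5 from 0.01 to -0.01 (every gene with at least 1 count), -0.002 (limma-voom), -0.02 (replicate block), -0.15 (without knock-out replicate 1) and -0.06 (without ΔTAD replicate 2), where leaving out 1 library at a time gave -0.15 to 0.10, for Mmp9 from 0.10 to -0.05 (without ΔTAD replicate 2, leave-one-out range -0.05 to 0.18) and for Nfatc1 from -0.06 to 0.02 (library size alone). With every gene of at least 1 count tested, 2 of the 9 genes were lower in knock-out and 2 in ΔTAD against wild-type, in place of 1 each, the added gene being Itgb3, and with at least 10 counts in every library Ocstamp left the test and 0 were lower in knock-out macrophages. Leaving out 1 library gave 1 to 2 lower genes in both, because Itgb3 passed the filter in some of these fits. With library size alone 1 instead of 2 of the 9 genes were lower in knock-out than in ΔTAD macrophages, and 11 instead of 29 pathway genes. This scaling, in which ΔTAD replicate 1 differs most, moved the share of calls that were higher from 52.9% to 39.6% in ΔTAD against wild-type and from 42.1% to 69.0% in knock-out against ΔTAD. The replicate numbers did not pair the libraries, with correlations of deviations between -0.072 and 0.02 for equal numbers, and the replicate block gave 4 higher and 1 lower gene in each edited genotype against wild-type and 1 higher and 2 lower between them, the same counts as without it. For the pathway genes the replicate block gave 60 higher and 18 lower in knock-out, 60 and 21 in ΔTAD, and 29 and 29 between them. The causes were not tested. Depth limits Ocstamp, Oscar and Itgb3, with at most 25 counts in any library.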
